A study of Mus musculus with 18 samples.

Results

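Sorted cells of mouse LCP cultures were compared between day 10 of differentiation (sorted LCP D10) and day 0 (sorted LCP D0). LCP is the labels' own name for expanded cultures grown as primary cochlear organoids. The labels leave the abbreviation unexplained and do not give the marker or gate used for the sort. Each group had 2 libraries. Protein-coding genes that reached 1 TPM in at least 2 of these 4 libraries were described, 12610 of the 21697 protein-coding genes listed. The other 9087 stayed below that level. TPM, a transcript abundance unit, scales each gene by its length and each library to 1 fixed total. Of the 12610 genes, 10207 reached the level in both libraries of each group, 695 only through the D10 libraries, 657 only through the D0 libraries, and 1051 in some other combination of libraries. Genotype, strain, sex and culture agents are not given for these libraries in the sources used here. The series holds 18 libraries in 9 groups of 2, and unsorted LCP cultures at D10 and D0 serve below as a second comparison. A native Atoh1 sort from postnatal day 2 epithelium gives side values for a few genes.

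Hair cells are the mechanosensory cells of the inner ear. A bundle of stereocilia on their upper face carries the transduction channel at the end of fine tip links, and calcium entering at the base releases transmitter at ribbon synapses. Their neighbours, the supporting cells, keep Notch signaling active through ligands on the hair cells, hold the epithelium to its basement membrane and share small molecules through gap junctions. Some neonatal supporting cells with the Wnt receptor gene Lgr5 can divide in culture. When growth signals are withdrawn and Notch is blocked, part of their progeny takes on hair cell genes. The comparison asks which genes differed between the end and the start of the culture course, and how far the difference reaches beyond hair cell genes into metabolism, extracellular matrix, signaling and ion channels.

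Library quality was looked at first. The files hold no counts, so the depth behind each value is not known and counting error is not given. Genes at 1 TPM or more numbered 16539 and 15932 in the sorted LCP D10 libraries and 15382 and 14381 in the sorted LCP D0 libraries. Mitochondrial genes took 9.09 and 10.9% of the TPM at D10, against 9.18 and 8.84% at D0. The D10 replicates were more alike than the D0 replicates: 35 genes differed by more than 2 on the log2(TPM + 1) scale between the D10 libraries, against 364 between the D0 libraries, and 315 of those 364 were higher in D0 replicate 1. Lgr5 was one of them, at 92.5 TPM in D0 replicate 1 and 4.14 TPM in D0 replicate 2. The Notch ligand gene Jag1 was at 120 and 5.59 TPM in the same 2 libraries. Levels of such genes at D0 rest on 1 library, and list counts and medians that move by over 1.5 times without it are named where they stand. Replicate 1 of both days shares 1 extraction date and 1 sequencing date in the labels, and replicate 2 of both days shares another pair of dates, so date and day of differentiation are not confounded. In 7 of the 18 libraries, none of them sorted LCP, the labelled extraction date is later than the sequencing date.

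**Figure D1:**
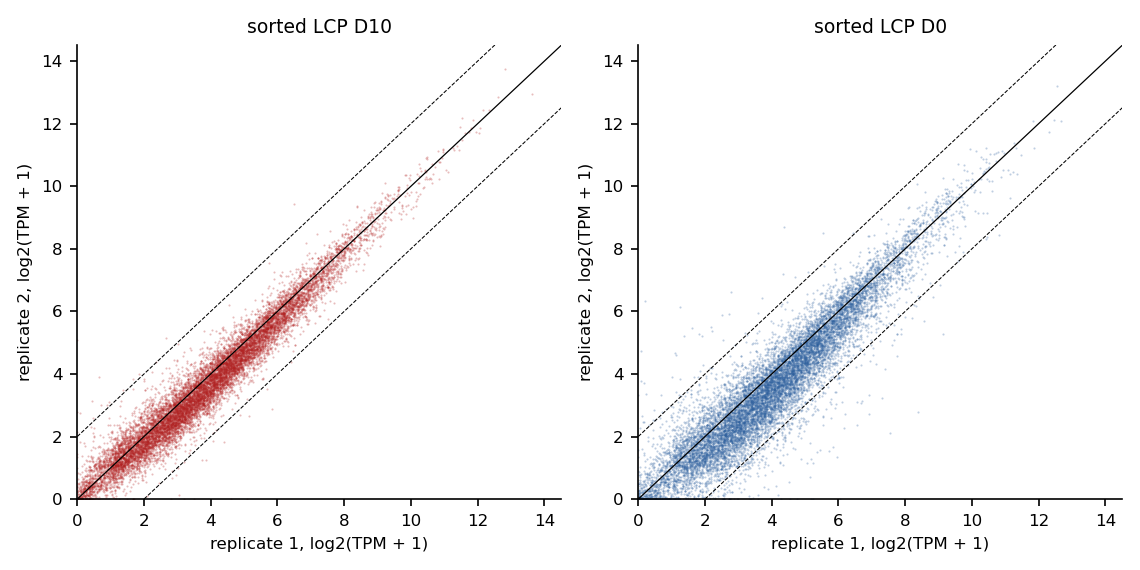
Level of each of the 12610 genes in replicate 2 (y axis) against replicate 1 (x axis), both as log2(TPM + 1), for sorted LCP D10 (left) and sorted LCP D0 (right). The solid line marks equal levels and the dashed lines a difference of 2; 35 genes lie outside the dashed lines at D10 and 364 at D0.

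Tested with limma across all 18 libraries, 3628 of the 12610 genes (28.8%) passed an adjusted p of 0.05 (Benjamini-Hochberg over 20463 genes tested). Of these, 1736 (13.8%) were higher and 1892 (15.0%) lower at D10. The groups did not overlap in any of the 3628, nor in 8253 (65.4%) of all 12610 genes. The higher genes moved further: 239 rose by more than 4 on the log2 scale and 74 fell by more than 4. Median differences were 1.92 among the higher and -1.67 among the lower genes, and -0.09 over all 12610. The smallest difference that passed was 0.55 in size. Without D10 replicate 1 the calls fell to 1848 (858 higher and 990 lower); without D0 replicate 2 the higher calls fell to 1042, and without D0 replicate 1 or D10 replicate 2 the lower calls fell to 1197 and 1112. In the lists below, members that reached the level filter only through 1 day had their direction fixed by it, so the counts and medians of such lists are descriptions. In bulk libraries, fewer cells of a type and less RNA per cell cannot be told apart.

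The genes that rose most encode calcium sensors, a potassium channel and secreted proteins. Cabp2 (chromosome 19, 4081578 to 4087340, mm10), a calcium-binding protein that modulates the calcium channel of the hair cell synapse, was at 4250 and 3360 TPM in the D10 libraries and at 0.0523 and 0 TPM in the D0 libraries. Cib3 (chromosome 8, 72204335 to 72212837), which encodes a binding partner of the transduction channel, was at 2200 and 1410 TPM at D10, against 0.351 and 0 TPM at D0. Spp1 (chromosome 5, 104435118 to 104441050), the secreted phosphoprotein osteopontin, was at 12700 and 7830 TPM at D10, against 3.60 and 40.5 TPM at D0. In all 3 the D10 libraries stood far above the D0 libraries, with log2 differences of 11.85 (SE 1.02, adjusted p = 5.09e-05) for Cabp2, 10.57 (SE 1.20, adjusted p = 0.000175) for Cib3 and 9.50 (SE 1.5, adjusted p = 0.00107) for Spp1. The native Atoh1 sort had Cabp2 at 159 ± 18.3 TPM, Spp1 at 27.9 ± 35.2 TPM and Cib3 at 0.344 ± 0.112 TPM (SD, n = 2). Cib3 was thus near its D0 level in native cells sorted at postnatal day 2, and that difference from the cultures was not tested here.

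Kcna10, a voltage-gated potassium channel gene that ranked between Cib3 and Spp1, was at 1160 and 771 TPM at D10 and 0.0668 and 0 TPM at D0, and Cxcl14, a chemokine gene next after Spp1, at 760 and 833 TPM at D10 and 0.835 and 0.314 TPM at D0. Their log2 differences were 9.84 (SE 0.77, adjusted p = 4.23e-05) and 9.00 (SE 1.00, adjusted p = 0.000157). Smpx, a small cytoskeletal protein linked to deafness, rose by 8.83 and Acbd7, an acyl-CoA binding protein gene, by 7.69. Ccer2, Tmem255b, Lce6a and Lhfpl5, of which Lhfpl5 encodes a subunit of the transduction complex, rose by 8.39, 7.83, 7.75 and 7.71. Ccl21a, a chemokine gene with near-identical copies that could split its reads, was at 234 and 147 TPM at D10 and is listed at 0 in both D0 libraries. These 12 genes were chosen with no overlap between the groups as a condition. Those under 1 TPM in both D0 libraries, such as Cabp2, Cib3, Kcna10 and Cxcl14, passed the level filter only through D10.

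The genes that fell most include Notch and cell cycle genes. Hes1 (chromosome 16, 30064384 to 30067796), the transcriptional repressor switched on by Notch, was at 3.38 and 3.53 TPM at D10, against 1570 and 929 TPM at D0. Hells (chromosome 19, 38930915 to 38971051), a chromatin remodeler of dividing cells, was at 0.484 and 0.256 TPM at D10, against 133 and 260 TPM at D0. The log2 differences were -8.08 (SE 1.24, adjusted p = 0.000865) for Hes1 and -7.10 (SE 0.65, adjusted p = 6.6e-05) for Hells. Cdk1, the kinase that starts mitosis, fell by 6.49, the mitotic kinase gene Pbk by 5.68, the cyclin genes Ccnd2 and Ccnb2 by 5.54 and 5.28 and Birc5, a chromosomal passenger protein, by 5.19. Hist1h2ap, a histone gene whose reads may be shared with near-identical copies, fell by 6.24. The others of the 12 encode the galectin Lgals1 (-5.94), the EMI domain protein Emid1 (-5.86), the lipid transporter Mfsd2a (-5.49) and the microfibril protein Mfap2 (-5.32). Lgals1 was at 0.377 and 2.17 TPM at D10, against 297 and 54.3 TPM at D0, and alone of these 12 did not pass when the 4 libraries were fitted by themselves.

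**Figure D2:**
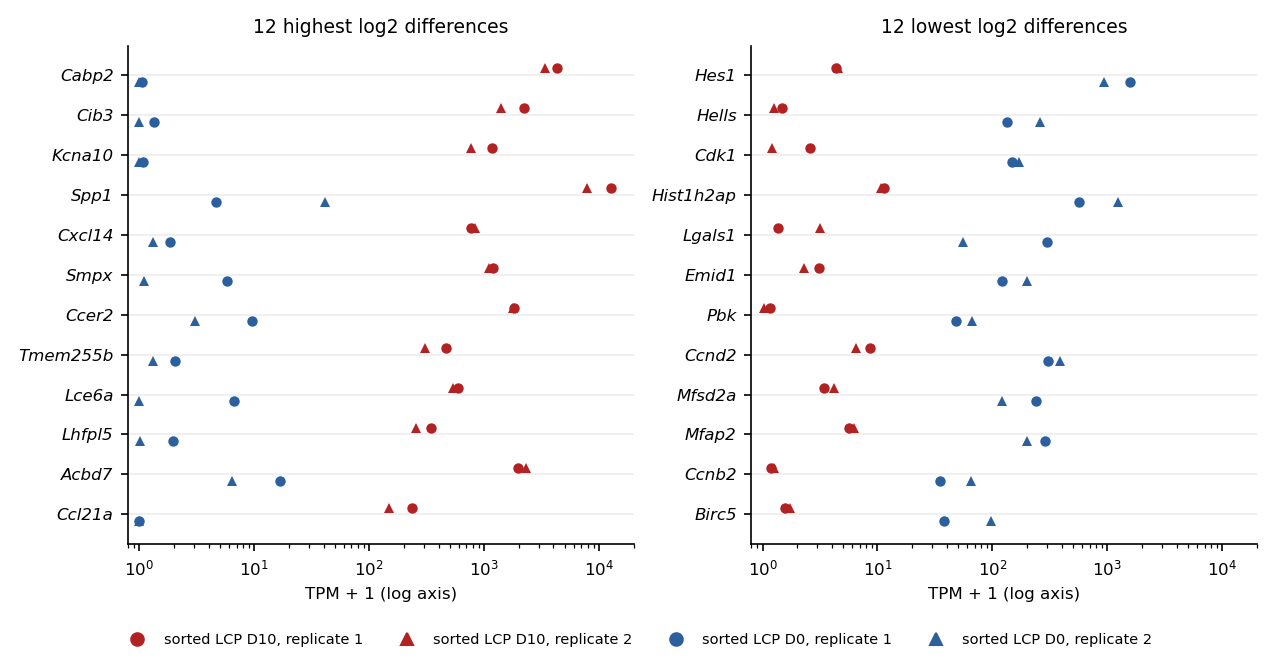
TPM + 1 on a log axis in each library for the 12 genes with the highest (left) and lowest (right) log2 differences, sorted LCP D10 in red above sorted LCP D0 in blue, circles for replicate 1 and triangles for replicate 2. The 24 genes were chosen with no overlap between the groups as a condition. Those under 1 TPM in both libraries of 1 day passed the level filter only through the other day. Spp1 reaches 12700 TPM at D10 and Hes1 1570 TPM at D0.

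Most measured members of the hair cell lists were higher at D10. Called were 61.5% of the regulator list and 64.7% of the ribbon synapse list, against 28.8% over all genes. In the mechanotransduction and bundle lists the share was 83.3% each. Of 15 transcription factor and RNA regulator genes of the hair cell lineage, 13 were measured, 8 rose and none fell, with a median log2 difference of 2.90. Gfi1, a zinc finger repressor needed for hair cell survival, was at 244 and 158 TPM at D10 and 0.192 and 0.0453 TPM at D0. Atoh1, the factor that starts hair cell differentiation, was at 31.5 and 27.5 TPM at D10 and 0.676 and 0.0105 TPM at D0, and its later partner Pou4f3 at 50.3 and 56.6 TPM at D10 and 0.0664 and 0 TPM at D0. The LIM homeodomain gene Lhx3 rose by 7.02, the RNA-binding protein gene Rbm24 by 6.93, Gfi1 by 7.47, Pou4f3 by 5.72 and Atoh1 by 4.55. Hes6 was already abundant at D0, at 104 and 114 TPM at D10 and 66.2 and 81.5 TPM at D0, and did not pass (log2 difference 0.57, adjusted p = 0.275). All 8 genes that rose reached the level filter only through the D10 libraries, so their direction was fixed by that filter. With the replicate number as a block 2 genes of the list fell.

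All 18 genes of the mechanotransduction complex and tip link were measured and 15 rose, with a median of 3.64. Tmc1, which encodes a pore-forming subunit, was at 86.8 and 46.6 TPM at D10, against 0.0454 and 0 TPM at D0, and rose by 5.98. Myo7a, the motor protein that tensions the tip link, was at 67.6 and 49.8 TPM at D10, against 0.791 and 0.345 TPM at D0, and rose by 5.25. Lhfpl5 was at 344 and 255 TPM at D10, against 0.978 and 0.0197 TPM at D0. Ush1c, the scaffold harmonin, was at 127 and 138 TPM at D10 and 112 and 98.9 TPM at D0 and did not pass (log2 difference 0.33, adjusted p = 0.784). Of the 24 bundle structure genes 20 rose, with a median of 4.26; the actin crosslinker gene Fscn2 (6.86), Kncn (7.44), Elmod1 (6.64) and Loxhd1 (6.38) rose most. Of the mechanotransduction genes 8, and of the bundle genes 14, passed the level filter only through D10. Otoa, which is also on the supporting cell list, was at 280 and 243 TPM at D10 and 262 and 77.2 TPM at D0. It did not pass (log2 difference 0.87, adjusted p = 0.375).

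Of 20 ribbon synapse and exocytosis genes 17 were measured, 11 rose and none fell, with a median of 2.72; 9 passed the level filter only through D10. Otof, the calcium sensor for transmitter release, was at 192 and 126 TPM at D10 and 0.0922 and 0.0059 TPM at D0 and rose by 7.22. Dnajc5b, a cysteine string protein gene, was at 158 and 90.5 TPM at D10 and is listed at 0 in both D0 libraries. Nrxn3, an adhesion protein of synapses, was at 240 and 144 TPM at D10, but at 185 and 3.35 TPM at D0, so its groups overlapped (log2 difference 2.72, adjusted p = 0.137). In these 4 hair cell lists, leaving out any 1 of the 4 libraries changed a count by at most 3 genes.

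Glycolysis genes rose together in the sorted cells. Glycolysis breaks glucose down to pyruvate, and hypoxia-inducible factors raise many of its enzymes when oxygen is low. All 22 genes of glycolysis and glucose uptake were measured, and 12 rose while none fell. Their median log2 difference was 1.62, and 54.5% were called, against 28.8% over all genes. Their summed level was 16000 and 15900 TPM at D10 and 5290 and 5110 TPM at D0. Aldoa, the muscle-type aldolase, was at 2800 and 2280 TPM at D10 and 376 and 209 TPM at D0. Pfkp, a phosphofructokinase gene for the committed step, was at 345 and 244 TPM at D10 and 40.5 and 12.2 TPM at D0. The D10 libraries were the higher ones in both genes, with log2 differences of 3.17 (SE 0.52, adjusted p = 0.0013) for Aldoa and 3.64 (SE 0.53, adjusted p = 0.000678) for Pfkp. Gpi1 and Eno1, genes of an isomerase and an enolase step, were named after their values were seen. They rose by 2.65 (adjusted p = 0.00201) and 2.02 (adjusted p = 0.00407). Gapdh, the most abundant gene that did not pass, was at 2970 and 4650 TPM at D10 and 1690 and 1780 TPM at D0 (log2 difference 1.10, adjusted p = 0.103).

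The size of that group call rests on all 4 libraries. It was 4 of 22 without D10 replicate 1, 5 without D0 replicate 2, 6 without D10 replicate 2 and 9 without D0 replicate 1. Eno2, a neuron-type enolase, was at 327 and 155 TPM at D10 and 7.12 and 2.82 TPM at D0 (log2 difference 5.34, adjusted p = 0.00571). Slc16a3, a lactate exporter gene, was at 130 and 126 TPM at D10 and 8.11 and 0.497 TPM at D0 (log2 difference 5.13, adjusted p = 0.014). In the unsorted cultures the same 22 genes had a median of -0.47 between D10 and D0 and none passed there. Eno2 missed the threshold without D10 replicate 1 (adjusted p = 0.0559). Slc16a3 missed the threshold without D10 replicate 1 (adjusted p = 0.0757), D10 replicate 2 (0.0611) or D0 replicate 2 (0.111).

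Genes known as targets of hypoxia-inducible factors moved the same way. Of 15 such genes, all measured, 7 rose and none fell, with a median of 1.5. That is 46.7% called, against 28.8% over all genes. Bnip3, which marks mitochondria for removal, was at 1520 and 1220 TPM at D10 and 102 and 18.5 TPM at D0. Ankrd37, a short ankyrin repeat gene named after its values were seen, was at 102 and 139 TPM at D10 and 6.67 and 1.74 TPM at D0. Both genes were higher in each D10 library, Bnip3 by 4.92 (SE 0.90, adjusted p = 0.00255) and Ankrd37 by 4.71 (SE 0.68, adjusted p = 0.00062). Car9, a carbonic anhydrase used as a marker of hypoxia, was at 509 and 448 TPM at D10 and 16.6 and 6.49 TPM at D0 (log2 difference 5.38, adjusted p = 0.0164). Higd1a was at 71.5 and 78.2 TPM at D10 and 38.6 and 29.5 TPM at D0 and did not pass (adjusted p = 0.131). The count of 7 was 4 with the 12 culture libraries alone and 10 with the replicate block. It was 2 without D10 replicate 1 or D0 replicate 2 and 3 without D10 replicate 2. In unsorted cultures the median of these 15 genes was -0.02 and none passed. Oxygen was not measured, and its part in the result was not tested. Car9 missed the threshold without D10 replicate 1 (adjusted p = 0.0878), D10 replicate 2 (0.066) or D0 replicate 2 (0.0934).

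**Figure D3:**
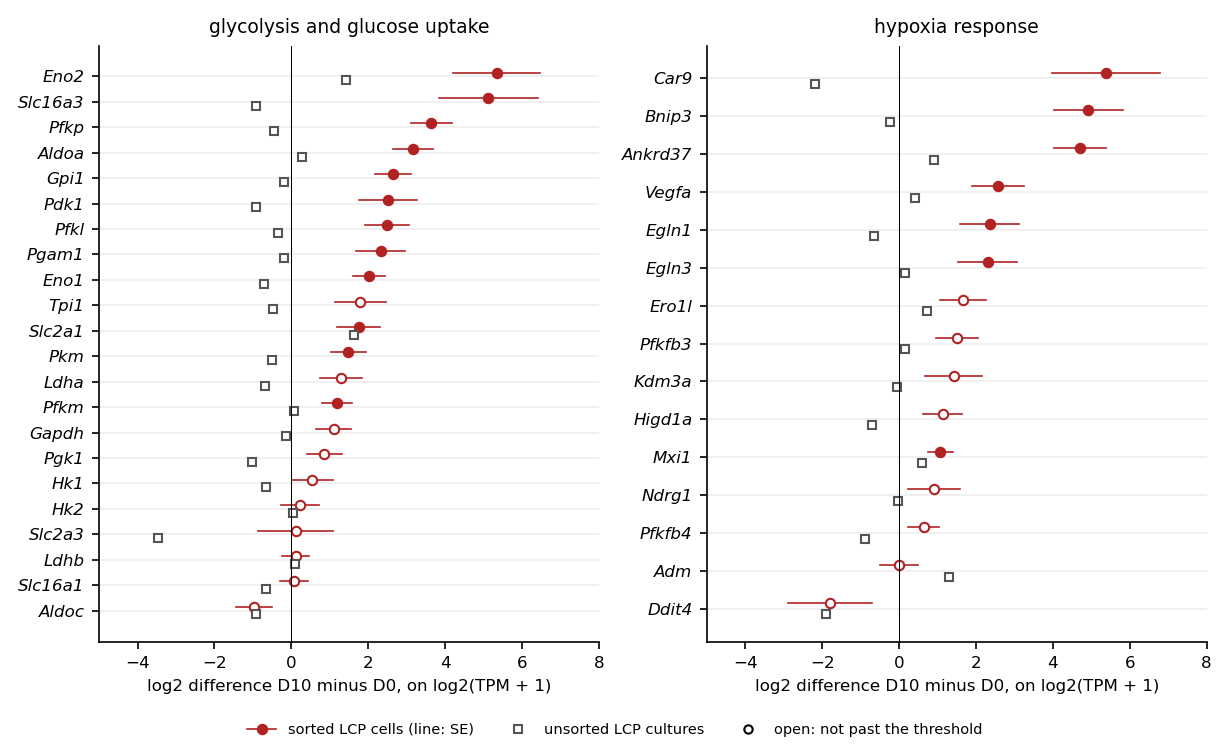
Log2 difference between D10 and D0 on log2(TPM + 1) for each gene of the glycolysis list (left) and the hypoxia list (right), with sorted LCP cells as red circles with a line of 1 SE on each side, and unsorted LCP cultures as gray squares; filled marks passed an adjusted p of 0.05. The sorted medians are 1.62 and 1.5 and the unsorted medians -0.47 and -0.02.

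The promoter letters of these genes were read for the core of the hypoxia response element, ACGTG on either strand, in RefSeq windows of 300 bases (250 before and 50 after each start, GRCm38.p6). This motif was chosen after the values were seen. It occurred in 10 of 13 matched hypoxia genes (76.9%) and 13 of 21 matched glycolysis genes (61.9%), against 21.8% of all 27025 genes with a window and 29.0% of the 9882 matched genes described here. For contrast, it occurred in 5 of 19 mitosis genes (26.3%), 9 of 23 replication genes (39.1%) and 8 of 20 Notch pathway genes (40.0%). The share was 21.1% in the bundle and collagen lists and 14.3% in the mechanotransduction list. The hypoxia list was made of known targets of hypoxia-inducible factors, so its share is no independent result. Many glycolysis enzymes are known to be raised by the same factors, so the glycolysis share is not independent either. The windows of Bnip3 and Ankrd37 are printed because these genes, among the 3 largest changes of the list, passed in each fit without 1 library; capitals mark the matches. Bnip3 holds 2 matches that overlap on opposite strands, from -108 and -107, and Ankrd37 holds 2, from -241 and -6, counted from the start. A match is a run of letters and not a shown binding site.
Bnip3, chr7:138909457-138909756, - strand: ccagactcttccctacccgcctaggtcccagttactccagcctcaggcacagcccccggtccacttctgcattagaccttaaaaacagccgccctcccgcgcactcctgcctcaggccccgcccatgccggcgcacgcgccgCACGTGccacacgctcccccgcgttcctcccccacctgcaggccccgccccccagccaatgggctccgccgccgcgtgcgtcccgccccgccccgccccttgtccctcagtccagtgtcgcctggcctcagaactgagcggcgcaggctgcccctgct
Ankrd37, chr8:45999801-46000100, - strand: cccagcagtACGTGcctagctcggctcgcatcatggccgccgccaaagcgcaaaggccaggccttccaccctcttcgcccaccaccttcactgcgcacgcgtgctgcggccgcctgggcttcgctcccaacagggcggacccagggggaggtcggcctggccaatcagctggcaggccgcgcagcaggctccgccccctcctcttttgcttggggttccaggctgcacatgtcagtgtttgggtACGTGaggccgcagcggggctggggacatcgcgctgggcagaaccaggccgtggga

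Mitochondrial metabolism moved little beside that. Of 23 genes of the tricarboxylic acid cycle and pyruvate entry, 4 fell and none rose (median -0.17), and of 25 respiratory chain and ATP synthase genes 2 fell (median -0.34). Of these lists 17.4% and 8.0% were called, below the 28.8% over all genes. Idh2, the mitochondrial isocitrate dehydrogenase, was at 44.3 and 37.2 TPM at D10 and 191 and 163 TPM at D0 and fell by 2.09 (SE 0.35, adjusted p = 0.00146). Fh1, fumarase, was at 50.5 and 39.5 TPM at D10 and 100 and 96.3 TPM at D0 and fell by 1.12 (adjusted p = 0.00475). Tfam, the factor that packages mitochondrial DNA, was at 23.7 and 26.0 TPM at D10 and 50.9 and 71.4 TPM at D0 and fell by 1.25 (adjusted p = 0.0049). The others that fell were Cs, citrate synthase (-0.97), Sdhb, a subunit of succinate dehydrogenase (-1.02), and Cox6c, a subunit of cytochrome oxidase (-1.17). Sdha, of the same dehydrogenase as Sdhb, was at 919 and 553 TPM at D10 and 874 and 500 TPM at D0 and did not pass (log2 difference 0.11). Atp5b, the most abundant of the respiratory genes, was at 1610 and 1330 TPM at D10 and 1970 and 1480 TPM at D0 and did not pass (log2 difference -0.23, adjusted p = 0.47). The call of 4 became 2 without D10 replicate 1, and the call of 2 became 1 without that library and 4 with the replicate number as a block. Without D0 replicate 1 the median of the first list was 0.12 and 1 gene rose; in the other fits without 1 library it lay between -0.43 and -0.08. Cs missed the threshold without D10 replicate 1 (adjusted p = 0.0559), D10 replicate 2 (0.127) or D0 replicate 1 (0.162). Sdhb missed the threshold without D10 replicate 1 (adjusted p = 0.0558) or D0 replicate 2 (0.0532). Cox6c missed the threshold without D10 replicate 1 (adjusted p = 0.0878) or D0 replicate 2 (0.0611).

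Of 25 genes of nucleotide and one-carbon synthesis, 13 fell and 1 rose, with a median of -1.25. That is 56.0% called, against 28.8% over all genes. The level filter was passed only through D0 by 3 of them, Rrm2 included. Rrm2, the subunit of ribonucleotide reductase made in S phase, was at 0.435 and 0.613 TPM at D10 and 40.2 and 45.9 TPM at D0 and fell by 4.85 (adjusted p = 4.23e-05). Thymidylate synthase Tyms was at 8.35 and 11.6 TPM at D10 and 93.8 and 175 TPM at D0 and fell by 3.57. Thymidine kinase Tk1 fell by 3.57 and the serine enzyme Shmt1 by 3.49, while Psph, of serine synthesis, was at 111 and 165 TPM at D10 and 94.1 and 92.3 TPM at D0 and did not pass. The gene that rose, Psat1, of the same pathway, was at 183 and 181 TPM at D10 and 101 and 79.0 TPM at D0 (log2 difference 1.02); it was named after its values were seen. Without 1 library 9 to 12 genes fell and none rose. Of 24 ribosome biogenesis genes 4 fell and 1 rose (median -0.88), or 20.8% called, against 28.8% of all genes; 9 fell with the replicate block, 2 without D10 replicate 1 or D0 replicate 1 and 1 without D10 replicate 2. Wdr12, a factor for large subunit assembly, was the gene that rose, at 73.0 and 71.8 TPM at D10 and 24.9 and 25.2 TPM at D0 (log2 difference 1.5, adjusted p = 0.00176). The nucleolar protein genes Npm1 and Dkc1 fell by 1.33 and 1.41, the RNA polymerase I subunit gene Polr1e by 1.46 and Nolc1, named after its values were seen, by 1.27. Nop56 was at 253 and 223 TPM at D10 and 382 and 370 TPM at D0 and did not pass (adjusted p = 0.0729, but 0.0381 with the replicate block). Psat1 missed the threshold without D10 replicate 1 (adjusted p = 0.17), D10 replicate 2 (0.141), D0 replicate 1 (0.0735) or D0 replicate 2 (0.206). Npm1 missed the threshold without D10 replicate 1 (adjusted p = 0.0713). Dkc1 missed the threshold without D10 replicate 2 (adjusted p = 0.0661). Polr1e missed the threshold without D10 replicate 1 (adjusted p = 0.0992), D10 replicate 2 (0.0549) or D0 replicate 1 (0.0954). Nolc1 missed the threshold without D10 replicate 2 (adjusted p = 0.0814) or D0 replicate 1 (0.0922).

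Of 22 measured genes of fatty acid synthesis and oxidation, 10 fell and none rose (median -0.54). That is 45.5% called, against 28.8% over all genes, and 1 of the 22 passed the level filter only through D0. Acadl, a mitochondrial acyl-CoA dehydrogenase, was at 4.55 and 6.85 TPM at D10 and 46.5 and 48.9 TPM at D0 and fell by 2.88 (adjusted p = 0.000342). The desaturase gene Scd1 fell by 2.94 and Cpt1a, the gate of fatty acid entry into mitochondria, by 2.51. Fabp3, a fatty acid carrier, fell by 2.69. Acsl3, an acyl-CoA synthetase gene, was at 137 and 107 TPM at D10 and 339 and 82.7 TPM at D0 and its groups overlapped. Without D0 replicate 1 the count was 3, with 1 other gene higher, and without D10 replicate 2 it was 4; without D0 replicate 2 the median was -0.86. Of 22 cholesterol synthesis genes 3 fell and 1 rose (median -0.85), or 18.2% called, below the 28.8% over all genes, and 8 fell with the replicate block. That median was -1.28 without D10 replicate 1 and -0.39 without D10 replicate 2. Dhcr7, which catalyzes the last step, was at 45.0 and 38.5 TPM at D10 and 178 and 120 TPM at D0 and fell by 1.79 (adjusted p = 0.00304). The decarboxylase gene Mvd fell by 2.21 and Nsdhl, of sterol demethylation, by 1.57. Hsd17b7, a reductase of the same pathway, was at 166 and 65.0 TPM at D10 and 23.2 and 5.77 TPM at D0 and rose by 3.04 (adjusted p = 0.0092). Fdps was at 265 and 160 TPM at D10 and 273 and 379 TPM at D0 and did not pass. In each fit without 1 library 2 of the 22 genes fell. Fabp3 missed the threshold without D10 replicate 1 (adjusted p = 0.0747), D10 replicate 2 (0.0864) or D0 replicate 1 (0.119). Mvd missed the threshold without D10 replicate 1 (adjusted p = 0.138), D10 replicate 2 (0.102), D0 replicate 1 (0.0772) or D0 replicate 2 (0.129). Hsd17b7 missed the threshold without D10 replicate 1 (adjusted p = 0.097) or D0 replicate 2 (0.0842).

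Antioxidant genes were split, 3 of 22 higher and 5 lower (median 0.19), or 36.4% called, against 28.8% over all genes. By the level filter 1 of the 22, Nqo1, passed only through D0. Gpx2, a glutathione peroxidase of epithelia, was at 1410 and 1390 TPM at D10 and 53.6 and 102 TPM at D0 and rose by 4.22 (SE 0.69, adjusted p = 0.00128). Nqo1, a quinone reductase, was at 0.703 and 0.247 TPM at D10 and 3.31 and 5.81 TPM at D0 and fell by 1.90 (adjusted p = 0.00422). Gclc, the rate-limiting enzyme of glutathione synthesis, rose by 1.86 and Gsta4, a glutathione transferase, fell by 2.58. Hmox1 (1.67), Gsr (-1.23), Txn1 (-1.04) and Prdx6 (-0.93) also passed and were named after their values were seen. Gpx4 was at 1810 and 2220 TPM at D10 and 1280 and 1880 TPM at D0 and did not pass. The lower count was 2 without D10 replicate 1, D10 replicate 2 or D0 replicate 1 and 3 without D0 replicate 2, and the higher count was 1 without D10 replicate 1 or D0 replicate 2 and 2 without D10 replicate 2. The median was -0.11 without D0 replicate 2. Gclc missed the threshold without D10 replicate 1 (adjusted p = 0.173) or D0 replicate 2 (0.16). Gsta4 missed the threshold without D10 replicate 1 (adjusted p = 0.152), D10 replicate 2 (0.0541), D0 replicate 1 (0.0604) or D0 replicate 2 (0.108). Hmox1 missed the threshold without D10 replicate 1 (adjusted p = 0.0924), D10 replicate 2 (0.143), D0 replicate 1 (0.089) or D0 replicate 2 (0.104). Gsr missed the threshold without D10 replicate 2 (adjusted p = 0.067) or D0 replicate 1 (0.067). Txn1 missed the threshold without D10 replicate 1 (adjusted p = 0.0888) or D0 replicate 2 (0.0696). Prdx6 missed the threshold without D10 replicate 1 (adjusted p = 0.188), D10 replicate 2 (0.107), D0 replicate 1 (0.188) or D0 replicate 2 (0.0702).

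The cell cycle genes fell almost without exception. In the replication and mitosis lists 89.3% and 100% were called, against 28.8% over all genes. Of 28 DNA replication and S phase genes 25 fell and none rose (median -2.99), and of 24 mitosis and G2 genes all 24 fell (median -3.43). Mcm5, a subunit of the replicative helicase, was at 0.315 and 0.0837 TPM at D10 and 27.2 and 28.1 TPM at D0. Mcm2 of the same helicase was at 4.46 and 2.59 TPM at D10 and 167 and 123 TPM at D0, and Ube2c, a ubiquitin enzyme of mitotic exit, at 1.59 and 0.946 TPM at D10 and 56.3 and 109 TPM at D0. The D10 libraries were lower throughout, by 4.58 for Mcm5 (adjusted p = 4.23e-05), 5.03 for Mcm2 (adjusted p = 0.000147) and 5.14 for Ube2c (adjusted p = 7.21e-05); Uhrf1, which guides maintenance DNA methylation, was lower by 4.66. The proliferation marker Mki67 was at 0.0201 and 0.111 TPM at D10 and 4.12 and 11.0 TPM at D0 and fell by 2.88 (adjusted p = 0.000232). Pole, a replicative polymerase gene, was at 25.3 and 16.7 TPM at D10 and 5.37 and 8.63 TPM at D0 and did not pass (log2 difference 1.46, adjusted p = 0.0584). In these lists 8 and 12 genes passed the level filter only through D0, and fits without 1 library gave 24 to 25 and 22 to 23 lower genes.

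Promoters of the replication genes were read for E2F motifs, since E2F factors are known to drive S phase genes. The list is made of such genes, so its share of matches is no independent result. The letters TTTCCCGC, TTTGGCGC, TTTCGCGC and TTTGCCGC were searched on both strands of the same RefSeq windows. A match occurred in 13 of 23 matched replication genes (56.5%), against 2.60% of all genes with a window, 4.64% of the matched genes described here and 1 of 19 matched mitosis genes (5.26%). The windows of Hells and Mcm5 are printed as examples that hold a match, both among the 4 of the replication list that fell most. Mcm2 and Uhrf1 also fell further than Mcm5, and their windows are not described here. Hells holds 1 match from -62, and Mcm5 holds 2 that overlap on opposite strands, from -153 and -149; capitals mark the matches.
Hells, chr19:38930740-38931039, + strand: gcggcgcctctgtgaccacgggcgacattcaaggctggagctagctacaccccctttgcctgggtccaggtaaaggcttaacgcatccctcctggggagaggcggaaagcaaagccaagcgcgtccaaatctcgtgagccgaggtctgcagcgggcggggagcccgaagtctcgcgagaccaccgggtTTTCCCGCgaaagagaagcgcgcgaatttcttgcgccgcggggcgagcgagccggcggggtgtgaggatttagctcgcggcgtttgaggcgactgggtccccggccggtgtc
Mcm5, chr8:75109259-75109558, + strand: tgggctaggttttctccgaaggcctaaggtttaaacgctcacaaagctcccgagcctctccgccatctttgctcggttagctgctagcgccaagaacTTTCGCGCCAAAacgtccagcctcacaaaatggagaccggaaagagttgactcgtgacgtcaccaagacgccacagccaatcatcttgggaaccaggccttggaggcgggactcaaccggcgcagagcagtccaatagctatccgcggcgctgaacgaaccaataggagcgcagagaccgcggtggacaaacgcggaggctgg

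Regulators of entry into the cycle moved both ways. Among 17 measured CDK inhibitor and D cyclin pathway genes 3 rose and 6 fell, or 52.9% called, against 28.8% over all genes. Of the 17, 2 passed the level filter only through D0. Cdkn2d, an inhibitor of CDK4 and CDK6, was at 478 and 410 TPM at D10 and 23.8 and 24.7 TPM at D0, and Cdkn1c, an inhibitor of cyclin-CDK complexes, at 452 and 531 TPM at D10 and 45.1 and 62.8 TPM at D0. They rose by 4.14 (adjusted p = 0.000666) and 3.18 (adjusted p = 0.000899). Cyclin D1, Ccnd1, was at 7.23 and 4.88 TPM at D10 and 295 and 200 TPM at D0 and fell by 5.13 (adjusted p = 0.00024). Cdkn1b, the inhibitor best known in postnatal supporting cells, was at 3.04 and 3.43 TPM at D10 and 5.14 and 7.68 TPM at D0 and did not pass (log2 difference -0.79). Cdkn1a, another inhibitor, was at 160 and 195 TPM at D10 and 220 and 59.1 TPM at D0, and its groups overlapped. Gadd45g, a stress-linked brake named after its values were seen, rose by 3.01. Of 24 measured chromatin regulators 2 rose and 5 fell (median 0.12), or 29.2% called, close to the 28.8% over all genes. Ezh2, the methyltransferase of the Polycomb complex, was at 12.5 and 16.5 TPM at D10 and 66.0 and 61.2 TPM at D0 and fell by 2.07 (adjusted p = 0.00142). Hmgb2, a chromatin protein of dividing cells, fell by 3.23, the deacetylase gene Hdac1 by 1.14 and the methyltransferase gene Dnmt3b by 1.4. Hdac3 (0.86), Chd4 (0.89) and Smarca4 (-0.85) were named after their values were seen. Hdac2 was at 92.0 and 73.9 TPM at D10 and 103 and 82.2 TPM at D0 and did not pass. Without D10 replicate 1 those counts were 0 and 3, and no chromatin gene rose without D0 replicate 2 or D10 replicate 2; the median lay between -0.01 and 0.26. Hdac1 missed the threshold without D10 replicate 1 (adjusted p = 0.0508). Dnmt3b missed the threshold without D10 replicate 1 (adjusted p = 0.0552). Hdac3 missed the threshold without D10 replicate 1 (adjusted p = 0.164), D10 replicate 2 (0.0813) or D0 replicate 2 (0.196). Chd4 missed the threshold without D10 replicate 1 (adjusted p = 0.166), D10 replicate 2 (0.118), D0 replicate 1 (0.127) or D0 replicate 2 (0.107). Smarca4 missed the threshold without D10 replicate 2 (adjusted p = 0.0804) or D0 replicate 1 (0.0827).

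Among matrix genes that passed, more were lower than higher in each list but the tectorial and otolithic one. That list had 1 call, higher, though 7 of its 9 measured genes had negative differences. Of 25 collagen genes 12 were measured and 8 fell while none rose (median -2.07). Of the 12, 66.7% were called, against 28.8% over all genes, and 1 passed the level filter only through D0. Col9a3, a chain of the fibril-associated collagen of cartilage and tectorial membrane, was at 23.2 and 25.6 TPM at D10 and 311 and 331 TPM at D0 and fell by 3.66 (SE 0.67, adjusted p = 0.00241). Col2a1 was at 13.1 and 16.6 TPM at D10 and 205 and 170 TPM at D0 (log2 difference -3.57, adjusted p = 0.0385). Col9a1, another chain of that collagen, fell by 2.24 and Col18a1, a basement membrane collagen, by 2.21. Col11a2 was at 19.6 and 41.0 TPM at D10 and 61.5 and 39.2 TPM at D0 and its groups overlapped. The collagen count was 2 without D10 replicate 1, 3 without D0 replicate 1 and 4 without D10 replicate 2. Col1a1, Col1a2 and Col3a1, among the collagen genes below the filter, stayed under 1 TPM in all 4 libraries. Col2a1 missed the threshold without D10 replicate 1 (adjusted p = 0.159), D10 replicate 2 (0.108), D0 replicate 1 (0.121) or D0 replicate 2 (0.106). Col9a1 missed the threshold without D10 replicate 1 (adjusted p = 0.0668), D10 replicate 2 (0.0551) or D0 replicate 1 (0.0566). Col18a1 missed the threshold without D10 replicate 1 (adjusted p = 0.0532), D10 replicate 2 (0.0588) or D0 replicate 1 (0.0827).

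Basement membrane and integrin genes gave 8 lower and 1 higher of 24 measured (median -1.4), or 37.5% called, against 28.8% over all genes. The level filter was passed only through D10 by 1 of them, Lama1, and only through D0 by 3. Laminin beta 1, Lamb1, was at 2.74 and 2.79 TPM at D10 and 41.9 and 36.8 TPM at D0 and fell by 3.42 (adjusted p = 0.000666). Nephronectin, Npnt, an integrin ligand, was at 1.38 and 2.22 TPM at D10 and 30.9 and 26.0 TPM at D0 and fell by 3.41 (adjusted p = 9.22e-05). Nidogen 1, Nid1, fell by 3.18 and the laminin receptor subunit Itga6 by 2.57, while Itgb1 was at 33.4 and 25.9 TPM at D10 and 96.7 and 60.4 TPM at D0 and did not pass (adjusted p = 0.061, but 0.00194 with the replicate block). Fewer genes of the list were called lower without D10 replicate 1 (median -1.31). The gene that rose in the main fit was Lama1, the laminin alpha 1 chain, named after its values were seen. Lama1 was at 3.34 and 1.74 TPM at D10 and 0.408 and 0.226 TPM at D0 (log2 difference 1.39). Lama1 missed the threshold without D10 replicate 1 (adjusted p = 0.168), D0 replicate 1 (0.0558) or D0 replicate 2 (0.0989).

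Among 22 measured matricellular and matrix remodeling genes 3 rose and 6 fell (median -0.69, or -0.41 without D0 replicate 1). That is 40.9% called, against 28.8% over all genes. The level filter was passed only through D10 by 1 of them, Tnc, and only through D0 by 3. Tenascin C, Tnc, was at 26.9 and 15.4 TPM at D10 and 0.372 and 0.232 TPM at D0 and rose by 4.04 (SE 0.33, adjusted p = 4.23e-05). Serpine2, a protease inhibitor, was at 2.16 and 4.06 TPM at D10 and 107 and 70.8 TPM at D0 and fell by 4.46 (adjusted p = 8.82e-05). The proteoglycan gene Lum was at 12.6 and 14.7 TPM at D10 and 718 and 238 TPM at D0 and fell by 4.82 (adjusted p = 0.000758). The metalloprotease inhibitor gene Timp2 rose by 1.06. Sparc, a calcium-binding matrix protein, was at 1420 and 1970 TPM at D10 and 1450 and 1720 TPM at D0, and its groups overlapped. Of 13 tectorial and otolithic membrane genes 9 were measured, and 1 rose while none fell (median -1.16, or -0.15 without D0 replicate 1). The share called was 11.1%, below the 28.8% over all genes. The gene that rose passed the level filter only through D10. Without D0 replicate 2, 1 gene fell. Zpld1, a zona pellucida domain gene, was at 1.17 and 2.22 TPM at D10 and 0.194 and 0 TPM at D0 (log2 difference 1.27, adjusted p = 0.0233). Otol1, the otolith collagen-like gene, was at 193 and 228 TPM at D10 and 481 and 353 TPM at D0 and did not pass (adjusted p = 0.28). Timp2 missed the threshold without D10 replicate 1 (adjusted p = 0.12) or D0 replicate 1 (0.0949). Zpld1 missed the threshold without D10 replicate 2 (adjusted p = 0.148), D0 replicate 1 (0.0509) or D0 replicate 2 (0.109).

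Mesenchyme markers fell as well, but the lists share genes: Dcn and Lum are also on the matricellular list. Of 13 markers 6 were measured, and 5 fell with none higher (83.3% called, against 28.8% over all genes). By the level filter, 2 of the 6 passed only through D0 and 1 only through D10. The summed level of the list was 88.8 and 70.0 TPM at D10 and 1860 and 801 TPM at D0. Most of the D0 sum came from Dcn and Lum. Decorin, Dcn, also a proteoglycan, was at 48.9 and 32.3 TPM at D10 and 895 and 421 TPM at D0 and fell by 3.91 (adjusted p = 0.000593), and Vim, named after its values were seen, was at 23.0 and 20.5 TPM at D10 and 239 and 138 TPM at D0. Lum, described above, is on this list as well, and the others that fell, the mesenchymal transcription factor genes Twist1 (-1.59) and Prrx1 (-1.75), were named after their values were seen. Pdgfra was at 1.62 and 1.49 TPM at D10 and 0.721 and 0.808 TPM at D0 and did not pass. Of the markers below the filter, Col1a1, Col1a2, Col3a1, Pou3f4, Tbx18 and Twist2 were at most 0.977 TPM in any of the 4 libraries, and Pdgfrb at most 1.73 TPM. The part of mesenchymal cells in the matrix result was not tested. Twist1 missed the threshold without D10 replicate 1 (adjusted p = 0.158), D10 replicate 2 (0.132) or D0 replicate 1 (0.295).

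In the Notch pathway, target genes and ligand genes moved in opposite directions, with 1 exception among the ligands. Notch receptors on one cell bind ligands on its neighbour and switch on repressors of the Hes and Hey family. Of 24 genes 20 were measured, 7 rose and 7 fell (median -0.69), or 70.0% called, against 28.8% over all genes. Of the 20, 3 reached the level filter only through D10 and 3 only through D0. Several target genes fell: Nrarp was at 0.251 and 0.901 TPM at D10 and 52.3 and 35.3 TPM at D0, and Hey1 at 6.20 and 6.21 TPM at D10 and 262 and 103 TPM at D0. Their log2 differences were -4.83 (adjusted p = 0.000992) and -4.52 (adjusted p = 0.00439), beside -8.08 for Hes1. Heyl was at 5.68 and 4.44 TPM at D10 and 121 and 9.06 TPM at D0 and did not pass (adjusted p = 0.114), and the D0 replicates lay far apart.

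Most ligand genes of the pathway rose. Dlk2, a noncanonical ligand gene, was at 289 and 240 TPM at D10 and 0.416 and 0.507 TPM at D0 and rose by 7.5 (SE 0.75, adjusted p = 9.94e-05). The canonical ligand genes Dll1 and Jag2, named with the next 3 genes after their values were seen, were at 43.0 and 34.6 TPM and at 34.8 and 29.5 TPM in the D10 libraries, against 0.602 and 1.30 TPM and 3.88 and 5.11 TPM in the D0 libraries. They rose by 4.36 (adjusted p = 0.000543) and 2.60 (adjusted p = 0.00078), and Dll3, Dll4 and the glycosyltransferase gene Mfng by 3.48, 2.51 and 4.42. The ligand gene Jag1 went the other way, at 0.969 and 0.712 TPM at D10 and 120 and 5.59 TPM at D0 (log2 difference -3.94, adjusted p = 0.0363). The 7 lower genes numbered 4 without D0 replicate 1 or D10 replicate 2 and 5 without D10 replicate 1. The median of the list was -0.39 without D0 replicate 1 and -1.12 without D0 replicate 2. The RBPJ motif TGGGAA occurred in 4 of 20 matched Notch pathway promoters (20.0%) and in 28.3% of all genes with a window. Jag1 missed the threshold without D10 replicate 1 (adjusted p = 0.128), D10 replicate 2 (0.127) or D0 replicate 1 (0.284).

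Wnt, BMP and FGF pathway genes leaned lower. Of 26 measured Wnt pathway genes 10 fell and 1 rose (median -1.91), or 42.3% called, against 28.8% over all genes. Of the 26, 4 passed the level filter only through D0. Lgr6, an R-spondin receptor gene, was at 1.75 and 1.43 TPM at D10 and 93.9 and 41.5 TPM at D0 and fell by 4.62 (adjusted p = 0.000181). The transcription factor gene Tcf7 was at 0.582 and 1.47 TPM at D10 and 58.9 and 23.9 TPM at D0 and fell by 4.29 (adjusted p = 0.000729). The Wnt antagonist genes Dkk3 and Rnf43 fell by 3.41 and 2.96. Porcn, which readies Wnt proteins for secretion, was the gene that rose (1.48), named after its values were seen. Ctnnb1, beta-catenin, was at 117 and 83.1 TPM at D10 and 287 and 97.5 TPM at D0 and did not pass. Lgr5 was at 3.67 and 5.11 TPM at D10 and 92.5 and 4.14 TPM at D0, and its groups overlapped (log2 difference -2.04, adjusted p = 0.265). The lower count of the list was 5 without D10 replicate 2, 6 without D0 replicate 1 and 14 without D0 replicate 2, and the median was -1.13 without D0 replicate 1. No Wnt gene rose without D10 replicate 1, D10 replicate 2 or D0 replicate 2. Dkk3 missed the threshold without D10 replicate 1 (adjusted p = 0.0913), D10 replicate 2 (0.111) or D0 replicate 1 (0.173). Rnf43 missed the threshold without D10 replicate 2 (adjusted p = 0.0781) or D0 replicate 1 (0.0745). Porcn missed the threshold without D10 replicate 1 (adjusted p = 0.241), D10 replicate 2 (0.0744) or D0 replicate 2 (0.32).

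Of 22 measured BMP and TGF-beta genes 8 fell and 2 rose (median -1.03), or 45.5% called, against 28.8% over all genes. Of the 22, 2 passed the level filter only through D0. Id1 and Id2, inhibitors of bHLH factors that BMP signals switch on, were at 3.15 and 4.17 TPM and at 11.8 and 27.1 TPM in the D10 libraries, against 148 and 50.8 TPM and 613 and 216 TPM in the D0 libraries. They fell by 4.25 (adjusted p = 0.00273) and 4.27 (adjusted p = 0.000802), the secreted protein gene Fstl1 by 3.96 and Id3 by 4.80. Id4, named after its values were seen, was at 275 and 172 TPM at D10 and 39.3 and 15.3 TPM at D0 and rose by 3.09 (adjusted p = 0.0165), and Ltbp1, a binding protein of latent TGF-beta also named after its values were seen, rose by 1.85. Bmp7 was at 58.5 and 32.5 TPM at D10 and 74.0 and 60.0 TPM at D0 and did not pass. The lower count was 3 without D10 replicate 1, and the higher count was 1 without that library or D0 replicate 2. The median was -0.66 without D0 replicate 1. Id3 missed the threshold without D10 replicate 1 (adjusted p = 0.0821) or D0 replicate 1 (0.0503). Id4 missed the threshold without D10 replicate 1 (adjusted p = 0.113) or D0 replicate 2 (0.116).

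Of 19 measured FGF and EGF receptor pathway genes 8 fell and 1 rose (median -1.23), or 47.4% called, against 28.8% over all genes. The level filter was passed only through D10 by 1 of them, Fgf8, and only through D0 by 1. Fgf8, a growth factor of inner hair cells, was at 28.1 and 26.8 TPM at D10 and 0.367 and 0 TPM at D0 and rose by 4.6 (adjusted p = 0.00132). Etv4, a transcription factor induced by FGF signals, was at 0.897 and 4.19 TPM at D10 and 44.8 and 75.3 TPM at D0 and fell by 4.24 (adjusted p = 0.00049). Etv5, its close relative, fell by 2.97 and Spry1, a feedback inhibitor, by 2.87. Egr1 was at 154 and 184 TPM at D10 and 768 and 193 TPM at D0 and did not pass. With the replicate block 2 genes of the list rose. The lower count was 4 without D10 replicate 1 or 2 and 5 without D0 replicate 1 or 2, and the median was -1.88 without D0 replicate 2. In the Hippo list 3 of 15 measured genes fell and 1 rose (median -1.09), or 26.7% called, near the 28.8% over all genes; Axl, a receptor kinase gene, fell by 4.11 and the TEAD factor gene Tead2 by 3.04, and Ajuba, a scaffold of the pathway, by 2.24. Wwc1, an upstream activator, rose by 1.57. The YAP target gene Ccn1 was at 115 and 292 TPM at D10 and 227 and 490 TPM at D0 and did not pass (adjusted p = 0.513). With the replicate block 5 Hippo genes fell, and without D10 replicate 1 or 2 it was 2, with none higher without D10 replicate 1. Etv5 missed the threshold without D10 replicate 1 (adjusted p = 0.0938), D10 replicate 2 (0.178), D0 replicate 1 (0.175) or D0 replicate 2 (0.0642). Spry1 missed the threshold without D10 replicate 1 (adjusted p = 0.0826), D10 replicate 2 (0.0531) or D0 replicate 2 (0.107). Ajuba missed the threshold without D10 replicate 1 (adjusted p = 0.0946), D10 replicate 2 (0.116) or D0 replicate 2 (0.153). Wwc1 missed the threshold without D10 replicate 1 (adjusted p = 0.0523).

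**Figure D4:**
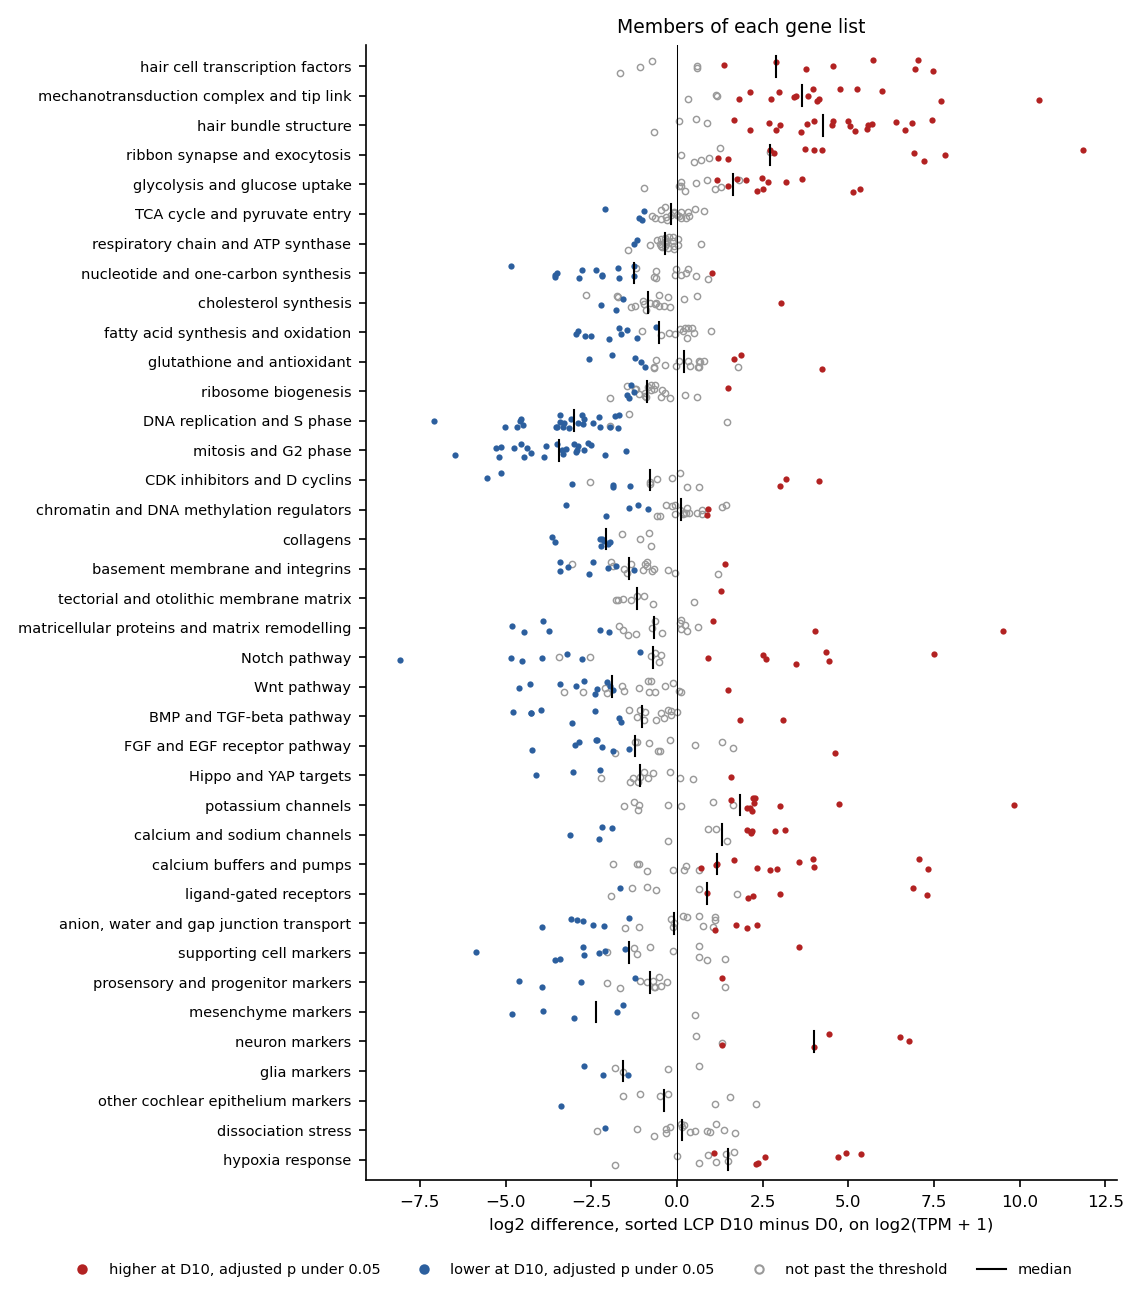
Log2 difference (sorted LCP D10 minus D0, on log2(TPM + 1)) for the measured members of each gene list with at least 5 measured members; red and blue points passed an adjusted p of 0.05 higher and lower at D10, open gray points did not, and black bars are medians. The bundle list has a median of 4.26, glycolysis 1.62, collagens -2.07 and mitosis -3.43.

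Ion channel and calcium handling genes leaned higher. Of 28 potassium channel genes 18 were measured, 10 rose and none fell (median 1.84), or 55.6% called, against 28.8% over all genes. Of the 18, 6 passed the level filter only through D10 and 1 only through D0. After Kcna10 came Kcnj13, an inward rectifier gene, at 47.0 and 45.7 TPM at D10 and 2.13 and 0 TPM at D0, which rose by 4.74 (adjusted p = 0.00041). Kcnma1, the large-conductance calcium-activated channel of mature hair cells, was at 11.5 and 4.93 TPM at D10 and 0.0437 and 0.0929 TPM at D0 and rose by 3.01, and Kcnh8 rose by 2.28. Kcnk1, a two-pore channel gene, was at 24.8 and 27.5 TPM at D10 and 81.6 and 73.8 TPM at D0 and did not pass (log2 difference -1.54, adjusted p = 0.0999). Once the replicate number was a block, it fell (adjusted p = 0.029).

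Of 20 measured calcium buffer and pump genes 12 rose and none fell (median 1.16), or 60.0% called, against 28.8% over all genes. Of the 20, 4 passed the level filter only through D10 and 1 only through D0. Calretinin, Calb2, was at 391 and 415 TPM at D10 and 3.52 and 0.435 TPM at D0 and rose by 7.31 (SE 0.87, adjusted p = 0.00023), and parvalbumin, Pvalb, was at 185 and 227 TPM at D10 and 1.35 and 0 TPM at D0 and rose by 7.07. Oncomodulin, Ocm, a buffer of outer hair cells, was at 17.0 and 13.2 TPM at D10 and is listed at 0 in both D0 libraries. Atp2b2, the calcium pump of the bundle, rose by 3.96, and Calm3, a calmodulin gene, was at 186 and 277 TPM at D10 and 125 and 171 TPM at D0 and did not pass (adjusted p = 0.17, but 0.0461 with the replicate block). The count of 12 was 7 without D10 replicate 1 and 8 without D0 replicate 1 or 2, with 2 genes lower without D0 replicate 2 and 1 with the replicate block.

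The other transport groups were mixed. Of 13 measured ligand-gated receptor genes 6 rose and 1 fell (median 0.86), or 53.8% called, against 28.8% over all genes. Of the 13, 7 passed the level filter only through D10 and 1 only through D0. Chrna10 and Chrna9, the subunits of the efferent acetylcholine receptor of hair cells, were at 219 and 129 TPM and at 161 and 101 TPM in the D10 libraries, against 0.111 and 0.0348 TPM and 0.185 and 0 TPM in the D0 libraries, and rose by 7.30 (adjusted p = 5.66e-05) and 6.88 (adjusted p = 0.00013). The purinergic receptor gene P2rx2 was at 28.2 and 33.0 TPM at D10 and 53.4 and 42.2 TPM at D0 and did not pass. Chrna1 rose by 2.99, while Htr3a, a serotonin receptor gene named after its values were seen, fell by 1.65. The higher count was 4 without D10 replicate 1, and the lower count was 2 without D0 replicate 2. The median was 1.4 without D0 replicate 1.

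Of 14 measured calcium and sodium channel genes 6 rose and 4 fell (median 1.30), or 71.4% called, against 28.8% over all genes. Of the 14, 5 passed the level filter only through D10. Trpm3, a cation channel gene, was at 13.8 and 11.2 TPM at D10 and 168 and 78.4 TPM at D0 and fell by 3.11 (adjusted p = 0.00172). The sodium channel subunit gene Scn3b rose by 3.14, the calcium channel subunit gene Cacna2d4 by 2.87, and the cation channel gene Trpv4 fell by 2.28. Cacna1a (-2.18) and Cacnb3 (-1.91), subunits of voltage-gated calcium channels, were named after their values were seen. Mcoln3, the channel altered in varitint-waddler mice, was at 154 and 57.0 TPM at D10 and 57.5 and 19.5 TPM at D0 and did not pass. Those counts were 1 and 2 without D10 replicate 1, 2 and 2 without D0 replicate 2, 3 and 3 without D10 replicate 2, and 5 and 2 without D0 replicate 1. The median was 0.82 without D0 replicate 2. Scn3b missed the threshold without D10 replicate 1 (adjusted p = 0.215), D0 replicate 1 (0.09) or D0 replicate 2 (0.105). Cacna2d4 missed the threshold without D10 replicate 1 (adjusted p = 0.0529). Trpv4 missed the threshold without D10 replicate 1 (adjusted p = 0.171), D10 replicate 2 (0.0804), D0 replicate 1 (0.143) or D0 replicate 2 (0.0689). Cacna1a missed the threshold without D10 replicate 1 (adjusted p = 0.179), D0 replicate 1 (0.0694) or D0 replicate 2 (0.0921).

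Of 23 measured genes of anion, water and gap junction transport 4 rose and 7 fell (median -0.10). That is 47.8% called, against 28.8% over all genes, and 4 of the 23 passed the level filter only through D0. Gjb2, connexin 26 of the supporting cell network, was at 8.65 and 17.3 TPM at D10 and 151 and 50.2 TPM at D0 (log2 difference -2.73, adjusted p = 0.0122). Gja1, connexin 43, fell by 2.93, the chloride channel gene Ano1 by 3.09 and Clic6 by 3.95. Gjb6, connexin 30, was at 51.1 and 107 TPM at D10 and 334 and 5.83 TPM at D0, and its groups overlapped (log2 difference 0.65, adjusted p = 0.801). Slc9a3r1, a scaffold of apical transporters named after its values were seen, was at 27.0 and 34.7 TPM at D10 and 149 and 126 TPM at D0 and fell by 2.13 (adjusted p = 0.0014). The genes that rose, also named after their values were seen, were the aquaporin gene Aqp11 (1.71), Clic5 of the bundle base (2.33), the chloride transporter gene Clcn3 (1.11) and the sodium pump subunit gene Atp1b1 (2.04). Without D10 replicate 1 the counts were 0 higher and 1 lower, without D0 replicate 1 they were 4 and 2, without D10 replicate 2 they were 3 and 3, and without D0 replicate 2 they were 1 and 7. The median was -0.54 without D0 replicate 2 and between 0.12 and 0.21 without each of the other 3 libraries. Gjb2 missed the threshold without D10 replicate 1 (adjusted p = 0.106) or D0 replicate 1 (0.0962). Gja1 missed the threshold without D10 replicate 1 (adjusted p = 0.0935), D10 replicate 2 (0.0797) or D0 replicate 1 (0.112). Ano1 missed the threshold without D10 replicate 1 (adjusted p = 0.158), D10 replicate 2 (0.133) or D0 replicate 1 (0.334). Clic6 missed the threshold without D10 replicate 1 (adjusted p = 0.0748), D10 replicate 2 (0.0793) or D0 replicate 1 (0.127). Aqp11 missed the threshold without D10 replicate 1 (adjusted p = 0.0928), D10 replicate 2 (0.0811) or D0 replicate 2 (0.143). Clic5 missed the threshold without D10 replicate 1 (adjusted p = 0.0896). Clcn3 missed the threshold without D10 replicate 1 (adjusted p = 0.265), D10 replicate 2 (0.0564) or D0 replicate 2 (0.311). Atp1b1 missed the threshold without D10 replicate 1 (adjusted p = 0.0516) or D0 replicate 2 (0.0523).

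The labels name cochlear organoids, and markers of the tissue were checked. Epcam, an epithelial adhesion gene, was at 238 and 253 TPM at D10 and 508 and 665 TPM at D0 (log2 difference -1.24, adjusted p = 0.0146). Sox2, a marker of sensory progenitors and supporting cells, was at 70.2 and 52.7 TPM at D10 and 30.1 and 16.5 TPM at D0 (log2 difference 1.41, adjusted p = 0.166). Of 18 measured supporting cell markers 8 fell and 1 rose (median -1.39), or 50.0% called, against 28.8% over all genes. The one that rose, S100a1, was at 6310 and 7330 TPM at D10 and 674 and 487 TPM at D0; it is also on the calcium buffer list. Emid1 was at 2.13 and 1.29 TPM at D10 and 119 and 200 TPM at D0 and fell by 5.86 (adjusted p = 7.97e-05). Epyc, a small proteoglycan of supporting cells, was at 16.1 and 16.7 TPM at D10 and 303 and 139 TPM at D0 and fell by 3.57. The lower count was 2 without D10 replicate 1, 3 without D0 replicate 1 and 5 without D10 replicate 2. The median was -0.67 without D0 replicate 1 and -2.40 without D0 replicate 2. Epcam missed the threshold without D10 replicate 1 (adjusted p = 0.0842), D10 replicate 2 (0.0559) or D0 replicate 2 (0.0934). Epyc missed the threshold without D10 replicate 1 (adjusted p = 0.0801), D10 replicate 2 (0.0639) or D0 replicate 1 (0.0888).

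Of 16 measured prosensory and progenitor markers 4 fell and 1 rose (median -0.79, or -0.14 without D0 replicate 1). The share called, 31.2%, is near the 28.8% over all genes. By the level filter, 1 of the 16, Pax2, passed only through D10 and 2 only through D0. Lgr6, Jag1 and Epcam, described above, fell, as did Igf2bp3, a fetal RNA-binding protein gene, by 2.81, and Pax2, an early otic factor, was at 1.59 and 1.53 TPM at D10 and 0.0492 and 0.00696 TPM at D0 and rose by 1.32; Igf2bp3, Epcam and Pax2 were named after their values were seen. The most abundant marker that did not pass was Gata3, a factor of the whole sensory lineage, at 215 and 152 TPM at D10 and 373 and 183 TPM at D0. The lower count was 2 without D10 replicate 1 or 2, and none rose without those libraries or D0 replicate 2. Pax2 missed the threshold without D10 replicate 1 (adjusted p = 0.068), D10 replicate 2 (0.0502) or D0 replicate 2 (0.0567).

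Markers of cells other than sensory epithelium were checked as well. Of 12 neuron markers 7 were measured and 5 rose (71.4% called, against 28.8% over all genes). Of the 7, 4 passed the level filter only through D10, so their direction was fixed by it. The summed level of the list was 392 and 268 TPM at D10 and 43.7 and 16.2 TPM at D0. The neurofilament genes Nefl and Nefm rose by 6.78 and 6.50, at 156 and 84.1 TPM and at 111 and 87.0 TPM in the D10 libraries, against 0.108 and 0 TPM and 0.199 and 0 TPM in the D0 libraries. The splicing factor gene Rbfox3 rose by 4.42, the synaptic protein gene Snap25 by 4.01 and the receptor gene Ntrk3 by 1.31. These were named after their values were seen, and Snap25 is also on the ribbon synapse list. Map2 was at 30.4 and 17.8 TPM at D10 and 28.7 and 8.41 TPM at D0, and its groups overlapped. The markers below the filter, Tubb3, Nefh, Stmn2, Prph and Gap43, were at most 0.665 TPM at D10 and at most 2.84 TPM at D0. Ntrk3 missed the threshold without D10 replicate 1 (adjusted p = 0.0887) or D0 replicate 2 (0.0642).

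Of 9 glia markers 7 were measured, 2 of them passing the level filter only through D0. Of the 7, 3 fell (42.9% called, against 28.8% over all genes). The summed level of the list was 96.5 and 110 TPM at D10 and 203 and 206 TPM at D0. Sox10, also on the supporting cell list, was at 6.41 and 20.6 TPM at D10 and 80.8 and 82.1 TPM at D0 and fell by 2.71 (adjusted p = 0.00563), and the myelin gene Pmp22 fell by 2.17. Ngfr, named after its values were seen, fell by 1.42, and Cnp was at 84.6 and 83.3 TPM at D10 and 96.4 and 106 TPM at D0 and did not pass. That count was 1 without D10 replicate 1 and 2 without D0 replicate 1 or D10 replicate 2. Of 11 immune markers 2 reached the filter, and the pan-leukocyte gene Ptprc was at most 0.0614 TPM. C1qb, a complement gene of macrophages, was at 7.64 and 5.17 TPM at D10 and 0.0332 and 0 TPM at D0 and rose by 2.84, and Cd68 was at 0.186 and 0.999 TPM at D10 and 1.94 and 1.59 TPM at D0 and did not pass. None of 6 erythroid or 6 melanocyte markers reached it, and 1 of 8 endothelium markers did, Tek, at 0.07 and 0.177 TPM at D10 and 2.49 and 4.18 TPM at D0 (log2 difference -1.92). Of 8 measured markers of other cochlear epithelium 1 fell, the transcription factor gene Gata2, at 0.449 and 0.562 TPM at D10 and 15.5 and 14.0 TPM at D0 (log2 difference -3.38, adjusted p = 0.000179); 1 also rose without D0 replicate 2. Meis2 was at 44.0 and 27.6 TPM at D10 and 1.21 and 23.4 TPM at D0 and did not pass. The share called in the other cochlear epithelium list was 12.5%, below the 28.8% over all genes. Of that list 3 genes, Gata2 among them, passed the level filter only through D0 and 1 only through D10. Among the markers above, Tek and Cd68 also passed only through D0, and C1qb only through D10. Of 17 dissociation stress genes 1 fell, Ier2, at 118 and 221 TPM at D10 and 835 and 582 TPM at D0 (log2 difference -2.10, adjusted p = 0.025), while with the replicate block 2 fell and 1 rose; without D0 replicate 1 or D10 replicate 1, 1 rose and none fell, and without D0 replicate 2 none passed. The chaperone gene Hspa8 was at 875 and 597 TPM at D10 and 864 and 519 TPM at D0, and its groups overlapped. Summed, the 17 stress genes were at 2520 and 2690 TPM at D10 and 4340 and 2480 TPM at D0. Of these 17 genes 5.88% were called, below the 28.8% over all genes. The part of neurons, glia, other cells or dissociation stress in the results above was not tested. Sox10 missed the threshold without D10 replicate 1 (adjusted p = 0.069). Pmp22 missed the threshold without D10 replicate 1 (adjusted p = 0.0937), D10 replicate 2 (0.0634) or D0 replicate 1 (0.0809). C1qb missed the threshold without D10 replicate 1 (adjusted p = 0.0865) or D0 replicate 2 (0.0538). Tek missed the threshold without D10 replicate 1 (adjusted p = 0.0594) or D0 replicate 2 (0.0613). Ier2 missed the threshold without D10 replicate 1 (adjusted p = 0.179), D0 replicate 1 (0.115) or D0 replicate 2 (0.0567).

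The same days were compared in unsorted cultures, which share no library with the sorted cells. The labels give unsorted D10 and D0 replicate 1 different sequencing dates, so date and day are confounded in that pair. Its extraction date also differs from that of sorted replicate 1. Both limits hold for the test of the difference below. There 1258 of the 12610 genes (9.98%) passed. Across the 12610 genes the sorted and unsorted changes had a Pearson's r of 0.783, a description over genes that share libraries within each comparison. Of the 3628 genes called in sorted cells, 3399 had the same sign in unsorted cultures, 1057 also passed there with that sign and 2 passed with the opposite sign. The change was larger in sorted cells for 3291 of the 3628; since they were chosen on the sorted values, that count is a description. The unsorted D10 replicates were themselves apart, with 596 genes differing by more than 2 on the log2 scale.

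**Figure D5:**
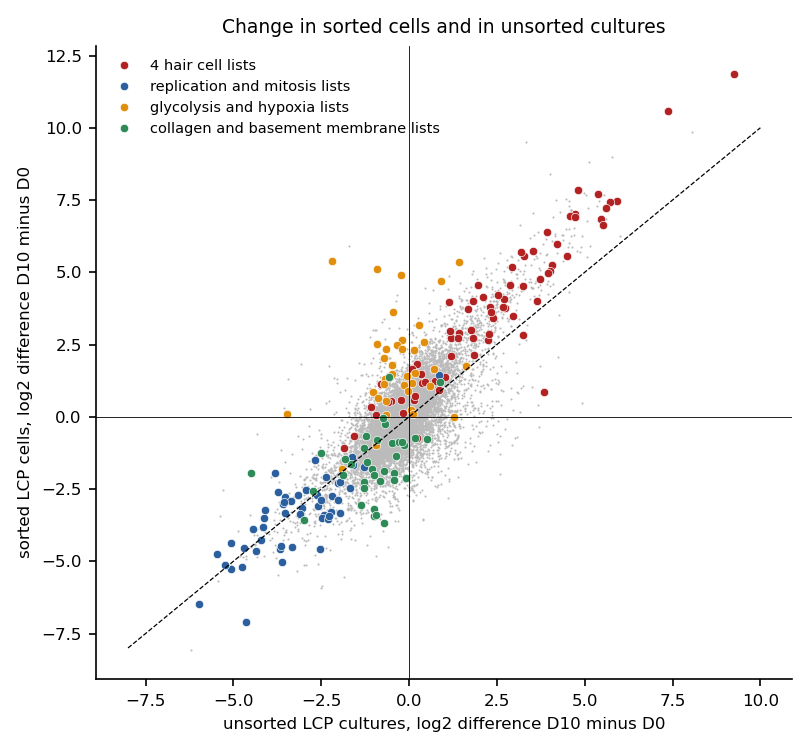
Log2 difference between D10 and D0 in sorted LCP cells (y axis) against that in unsorted LCP cultures (x axis) for the 12610 genes (gray) and the members of 4 pairs or groups of lists (colors), with equality as a dashed line. The bundle list has medians of 4.26 in sorted cells and 3.07 in unsorted cultures, mitosis -3.43 and -3.91, glycolysis 1.62 and -0.47, and collagens -2.07 and -0.87.

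The test of the difference between these changes called 10 genes (0.0793% of 12610), 4 more positive and 6 more negative in sorted cells; 1392 had an unadjusted p under 0.05. No gene of the glycolysis or hypoxia lists was among the 10, and Pfkp came nearest (difference 4.10, adjusted p = 0.0646). The strongest was Rbpms, an RNA-binding protein gene, at 9.81 and 8.01 TPM in sorted D10 and 61.4 and 74.4 TPM in sorted D0, and at 83.1 ± 54.4 TPM in unsorted D10 and 33.8 ± 0.50 TPM in unsorted D0 (SD, n = 2). Its changes differed by -3.90 (SE 0.58, adjusted p = 0.0239). The membrane metalloprotease gene Mmp14 was at 20.7 and 23.0 TPM in sorted D10 and 122 and 95.6 TPM in sorted D0, and at 94.2 ± 15.8 and 91.5 ± 2.77 TPM in unsorted D10 and D0, a difference of -2.29 (adjusted p = 0.0492). Fits without 1 of the 8 libraries gave 0 to 214 genes, the 214 without unsorted D10 replicate 2. The count was 0 without sorted D10 replicate 1 or unsorted D0 replicate 1, 1 without unsorted D10 replicate 1, 3 without sorted D0 replicate 2, 4 without unsorted D0 replicate 2 or sorted D10 replicate 2, and 16 without sorted D0 replicate 1.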

How the data were processed

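Sorted LCP cells at D10 and D0 were measured by RNA-seq, 2 libraries each. Per the labels' protocols, RNA from 2 ears of 1 pup per sample was amplified with a SMARTer kit and sequenced as single reads; whether this holds for cultures is not given. Nothing says that replicates come from separate cultures, so p-values may measure technical spread. The files hold TPM per gene as deposited by the authors, with no counts. The submitters' processing notes name STAR, Salmon, FastQC, DESeq2 and mm10; their roles and the strand setting are not stated, so overlapping and antisense genes cannot be told apart. Gene types, names and coordinates come from GENCODE M21.

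From the TPM, log2(TPM + 1) was fitted with limma 3.58.1 (R 4.3.3) as a mean per group over all 18 libraries, with a trended prior, on 20463 genes at 1 TPM or more in at least 2 libraries, and p-values were adjusted by Benjamini-Hochberg over all of them at a threshold of 0.05. The residual degrees of freedom were 9 and the prior added 2.8. Fold changes on this scale understate those of low genes. Differences between sorted and unsorted change were contrasts of the same fit. The script was tested on simulated data. The same replicate number marks 1 pair of extraction and sequencing dates in both sorted groups; deviations of same-numbered libraries correlated at 0.27 over 12610 genes, and a fit with the number as a block was an alternative.

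Genes named are the 12 highest and 12 lowest past the threshold with no overlap and a group mean of at least 10 TPM, up to 4 genes past the threshold per list and up to 2 per cell type, hypoxia or stress list, with the most abundant one not past it, 10 marker genes, and the 6 highest and 6 lowest differences from unsorted change. Others named were chosen after their values were seen. The genes, lists and comparisons were chosen with earlier results of these data known. Alternatives were other pseudocounts, filters, scalings, sets of libraries, blocks and fits without 1 library. Promoter windows are RefSeq's, GRCm38.p6. Some list members are counted but not reported here by name.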

Additional observations from a re-analysis of the deposited data

Results flagged for a closer look

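The change between D10 and D0 differed between sorted cells and unsorted cultures, by limma's test of the difference itself, in 10 genes. Values of both comparisons follow, with TPM of single libraries for sorted cells and mean ± SD (n = 2) for unsorted cultures. Each comparison of changes rests on 8 libraries. Rbpms lost the call in 5 of the 8 fits without 1 of them, and Tnni3, Mcub, Blnk, Selenop, Mmp14 and Timp2 each in 6 or 7; Kcnj6, CR974586.6 and Hist1h3a, named after their values were seen, were not followed through those fits.

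More positive in sorted cells was Tnni3, a troponin gene of heart muscle, at 47.3 and 47.1 TPM in sorted D10 and 3.40 and 1.05 TPM in sorted D0, and at 4.16 ± 2.69 TPM in unsorted D10 and 5.41 ± 2.50 TPM in unsorted D0, a difference in log2 change of 4.36 (SE 0.76, adjusted p = 0.0492). Mcub, the subunit that restrains mitochondrial calcium uptake, was at 27.6 and 17.3 TPM in sorted D10 and 0.906 and 1.82 TPM in sorted D0, and at 7.31 ± 2.03 TPM in unsorted D10 and 4.20 ± 0.115 TPM in unsorted D0, a difference of 2.65 (SE 0.46, adjusted p = 0.0492). The potassium channel gene Kcnj6 was at 4.05 and 3.30 TPM in sorted D10 and listed at 0 in both sorted D0 libraries, and at 0.373 ± 0.358 TPM in unsorted D10; its fitted difference of 1.85 (SE 0.29, adjusted p = 0.0368) depends on the pseudocount and is no bound. CR974586.6, a gene model with no role given here, was at 3.36 and 3.75 TPM in sorted D10 and listed at 0 in both sorted D0 libraries, with a fitted difference of 2.19 (SE 0.36, adjusted p = 0.0448) under the same limit.

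More negative in sorted cells was Rbpms, described above, with a difference of -3.90. The B cell adaptor gene Blnk was at 1.30 and 0.336 TPM in sorted D10 and 6.00 and 5.94 TPM in sorted D0, and at 21.4 ± 9.55 TPM in unsorted D10 and 2.92 ± 2.30 TPM in unsorted D0, a difference of -4.57 (SE 0.77, adjusted p = 0.0468). Selenop, a secreted selenium carrier, was at 11.4 and 12.5 TPM in sorted D10 and 36.7 and 32.5 TPM in sorted D0, and at 56.5 ± 11.8 TPM in unsorted D10 and 21.2 ± 4.87 TPM in unsorted D0, a difference of -2.84 (SE 0.48, adjusted p = 0.0468). Mmp14 differed by -2.29, with values given above. The metalloprotease inhibitor gene Timp2 rose in both comparisons but further in unsorted cultures, at 49.6 and 36.4 TPM in sorted D10 and 16.2 and 24.4 TPM in sorted D0, and at 186 ± 45.7 TPM in unsorted D10 and 18.6 ± 1.61 TPM in unsorted D0, a difference of -2.18 (SE 0.38, adjusted p = 0.0492). Hist1h3a, a histone gene with near-identical copies, was listed at 0 in both sorted D10 libraries and at 2.48 and 3.48 TPM in sorted D0, with a fitted difference of -1.72 (SE 0.30, adjusted p = 0.0492) that depends on the pseudocount.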

How the results depend on the processing

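The main counts were most affected by which libraries shared the estimate of spread. With the 4 compared libraries fitted alone, 1380 genes passed, 729 higher and 651 lower, and 113 of the 185 genes named as past the threshold did. List counts that moved by over 1.5 times in that fit, which has fewer libraries to estimate the spread, were as follows. Higher genes numbered 7 in the glycolysis list, 7 among calcium buffers, 2 among potassium channels and 0 in the cholesterol, chromatin, basement membrane, tectorial, nucleotide, Wnt, BMP, Hippo and anion transport lists. Lower genes numbered 7 in the nucleotide list, 4 in the basement membrane, Wnt and FGF lists, 3 in the chromatin, BMP, anion transport, supporting cell and mesenchyme lists, 2 in the potassium channel and prosensory lists, 1 in the tricarboxylic acid cycle, fatty acid, antioxidant, ribosome biogenesis, Hippo and calcium and sodium channel lists, and 0 in the respiratory, ligand-gated receptor and stress lists. Fits without 1 library gave 1848 to 3002 genes, 858 to 1805 higher and 990 to 1617 lower; there the arm with 1 library is assumed to vary like the other groups. With the replicate number as a block 4344 genes passed, 3625 of them among the 3628, and the 185 named genes all kept their call, while Itgb1, Nop56, Calm3 and Kcnk1 passed in addition; beyond the list counts given above, none moved by over 1.5 times. Pseudocounts, filters, scalings, the 12 culture libraries, the extraction date block, the fit with no trend and adjustment over these genes alone gave 3061 to 4989. The 4989 came from the extraction date block, whose dates are later than sequencing in 7 of 18 libraries. With it, higher genes numbered 5 in the antioxidant and chromatin lists, 2 in the tricarboxylic acid cycle and stress lists and 1 in the respiratory and replication lists, and lower genes 13 in the basement membrane list, 10 in ribosome biogenesis, 9 in cholesterol synthesis, 7 in Hippo, 5 in glia, 4 in the respiratory list, 2 in the hair cell regulator, potassium channel and stress lists and 1 in the tectorial and hypoxia lists. With the 12 culture libraries, higher genes numbered 4 in the hypoxia list, 2 in anion transport, 1 in the BMP and replication lists and 0 in the nucleotide, chromatin and Wnt lists, and no stress gene fell. No called gene named here changed sign.

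The count of 10 genes whose change differed from unsorted cultures was less stable. It was 3 (2 higher, 1 lower) at a pseudocount of 0.1 and 23 (16 higher) at 5, 22 (15 higher) with no filter and 0 at 5 TPM, 4 (0 higher) after median centring, 1 (1 higher, 0 lower) for the compared libraries alone, 1 (0 higher, 1 lower) with the extraction date block, 6 (2 lower) with no trend, 7 higher for the 12 culture libraries, 0 when adjusted over the 12610 genes, and 9 with the replicate block. Fits without 1 of the 8 libraries gave 0 to 214 called, 0 to 119 higher and 0 to 95 lower.

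Of the 40 named genes not past the threshold, 10 changed sign in a fit without 1 of the 4 libraries. Their log2 differences ran between -4.13 and 0.06 for Lgr5, -1.48 and 0.54 for Acsl3, -1.53 and 0.02 for Ctnnb1, -0.16 and 0.32 for Sparc, -0.31 and 1.57 for Cdkn1a, -2.16 and 3.46 for Gjb6, -0.26 and 0.48 for Hspa8, -0.29 and 1.37 for Map2, -0.01 and 1.74 for Otoa, and -0.29 and 0.51 for Sdha. The cause of these shifts was not tested. TPM keeps no depth, so counting error is not known.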
